A study of Mus musculus with 2 samples.

Results

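Plasmacytoid dendritic cells (pDCs) of the mouse liver were taken from 2 single-cell libraries as barcodes with at least 1500 unique molecular identifiers (UMIs, each a captured transcript), under 10% of UMIs from mitochondrial genes, 2 or more UMIs of *Siglech*, and none of *Cd3d*, *Cd3e*, *Cd3g* or *Cd79a*. This gate held 97 of 16052 cells, 19 of 7050 in the antibiotic library and 78 of 9002 in the vehicle library. The members were thus chosen by measured UMIs of *Siglech*, *Cd3d*, *Cd3e*, *Cd3g* and *Cd79a*, and the levels of these genes are given as a description. Both libraries were CD45+ leukocytes sorted by flow cytometry from livers of 6-week-old female mice and captured with the Chromium Single Cell 3′ v2 kit. The antibiotic mice drank water with ampicillin and metronidazole (1 mg/mL each) and vancomycin and neomycin (0.5 mg/mL each) for 1 week, and the vehicle mice were kept on vehicle over the same time. The sources used here do not give the number of mice behind a library. With 1 library per condition there is no test between conditions, and a difference between the treatments cannot be told apart from one between mice, sorts or captures. All intervals are 95% intervals that cover counting error only.

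pDCs are bone marrow-derived sentinels that sense nucleic acids of microbes in endosomes through the Toll-like receptors TLR7 and TLR9 and can then secrete type I interferon in large amounts. The transcription factor E2-2, encoded by *Tcf4*, keeps their identity together with *Irf8*, *Spib*, *Runx2* and *Bcl11a*. They carry surface receptors that signal through the ITAM adaptors DAP12 and FcRγ, share several lymphoid transcripts with B cells, and present antigen less well than conventional dendritic cells (cDCs) when at rest.

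The label of the gate was set beside genes it did not use. *Klk1*, *Cox6a2* and *Cd209d* among them were given with the label. The gene lists were chosen with earlier results of these data known, so this is a description and not an independent check. Of 8 other pDC markers (*Klk1*, *Cox6a2*, *Cd209d*, *Ccr9*, *Ly6d*, *Pacsin1*, *Rpgrip1* and *Upb1*), the median member had UMIs of 7 in both libraries, and 18 of 19 antibiotic and 78 of 78 vehicle members had at least 2. *Siglech* ranged between 2 and 27 UMIs in antibiotic members and between 5 and 28 in vehicle members, with a median of 13 in both. Just inside the threshold lay 1 antibiotic cell with 2 UMIs and 1 with 4. Just outside it, with 1 *Siglech* UMI and the other conditions met, were 0 antibiotic and 4 vehicle cells, and none of these had 2 of the other markers. The gate thus sat in an almost empty range of *Siglech*, and no barcode with between 100 and 1500 UMIs had 2 *Siglech* UMIs in either library.

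Members were deep relative to the rest. They had a median of 5975 UMIs in antibiotic and 6103 in vehicle members, against 3327 and 3505 in the other cells of those libraries, and medians of 1973 and 2107.5 detected genes. The totals summed below were 111856 UMIs over the antibiotic and 475716 over the vehicle members, so the antibiotic value of a gene is the less precise one. Ribosomal protein genes took 27.5% of antibiotic and 22.4% of vehicle pDC UMIs. Scaling without ribosomal and mitochondrial genes moves every log2 ratio below up by 0.11. Levels are counts per 1000000 UMIs of the same cells (CPM), summed over members, and a ratio is antibiotic over vehicle. The kit counts 1 end of each transcript, so that CPM of different genes can be set side by side.

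The exclusion of *Cd3* and *Cd79a* UMIs weighed unequally on the libraries. Among all cells with 2 or more *Siglech* UMIs (34 antibiotic and 185 vehicle), it left out 15 antibiotic and 107 vehicle cells. A *Cd3* UMI was found in 44.1% of these antibiotic and 42.7% of these vehicle cells, and a *Cd79a* UMI in 2.94% and 27.6%. Such UMIs were also frequent where they should be absent: *Cd79a* was seen in 11.2% of antibiotic and 22.9% of vehicle cells with 2 or more *Cd3* UMIs, at median depths of 3564.5 and 4074 UMIs. Conversely, a *Cd3* UMI was seen in 27.4% of antibiotic and 31.2% of vehicle cells with B cell genes such as *Ms4a1* and *Ebf1*, at median depths of 2185.5 and 2582.5 UMIs. Of the cells left out, 7 antibiotic and 71 vehicle cells had at most 1 UMI of the *Cd3* genes and at most 1 of *Cd79a*. Values with these trace cells added back are called the relaxed gate below (26 antibiotic and 149 vehicle cells). The doublet caller Scrublet marked 0 of 19 antibiotic and 2 of 78 vehicle members, and 0 of 15 and 22 of 107 of the *Siglech* cells left out. The libraries shared 93 cell barcodes, and no barcode was a member in both.

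pDCs made up a smaller share of the antibiotic library. They were 0.270% of its cells (19 of 7050, interval 0.162 to 0.421%), against 0.866% of vehicle cells (78 of 9002, 0.685 to 1.08%), a ratio of 0.311 (0.178 to 0.519). With the relaxed gate the shares were 0.369% and 1.66% (ratio 0.223, 0.141 to 0.340), and over all cells with 2 *Siglech* UMIs 0.482% and 2.06% (ratio 0.235, 0.158 to 0.340). The ratio depended on the denominator, and T cells were 68.6% of antibiotic and 45.4% of vehicle cells. Among cells without *Cd3* UMIs, pDCs were 1.51% (19 of 1255) and 2.74% (78 of 2847), a ratio of 0.553 (0.316 to 0.921). Among cells without *Cd3* and *Cd79a* UMIs they were 12.7% (19 of 150) and 18.4% (78 of 425), and the interval of that ratio, 0.395 to 1.15, includes 1.

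Monocytes were also a smaller share of the antibiotic library. These cells, gated on *Csf1r*, *F13a1*, *Chil3* and *Ace*, were 9 antibiotic and 39 vehicle cells (0.128% and 0.433%, ratio 0.295, 0.126 to 0.618), and cDCs, gated on *Xcr1*, *Clec9a* and *Cd209a*, were 1 and 6 cells. pDCs were a like part of the 3 classes together, at 65.5% (19 of 29) in antibiotic and 63.4% (78 of 123) in vehicle mice, with a ratio of 1.03 and an interval, 0.591 to 1.72, that allows a sizeable difference either way. B cells were 15.3% of antibiotic and 25.8% of vehicle cells.

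**Figure D1:**
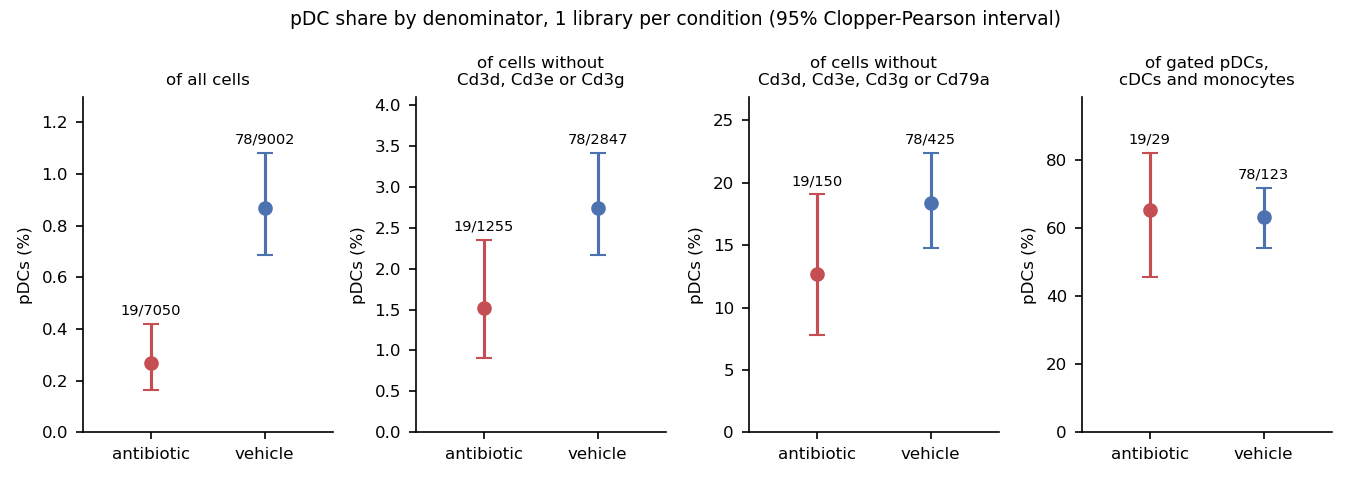
pDC share in percent of 4 denominators, for the antibiotic and the vehicle library (points, with 95% Clopper-Pearson intervals and the counts above them). The antibiotic share is lower over all cells (19 of 7050 against 78 of 9002) and close to the vehicle share over gated pDCs, cDCs and monocytes (19 of 29 against 78 of 123).

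The 4 given pDC markers (*Siglech*, *Cd209d*, *Klk1* and *Cox6a2*) were among the 20 genes with the highest level in pDCs relative to all other cells. They were given with the label of these cells, so their rank is a description too. *Siglech* (ENSMUSG00000051504, chr7:55768178-55778925, mm10), a sialic acid-binding lectin that signals through DAP12, was 263 times higher in pDCs than in the other cells of the antibiotic library and 57.9 times higher in the vehicle library, which is a description because the gate used it. *Cd209d* (ENSMUSG00000031495, chr8:3871824-3878555), a C-type lectin, was 380 and 52.6 times higher, *Klk1* (ENSMUSG00000063903, chr7:44225360-44229618), a tissue kallikrein, 187 and 47.7 times, and *Cox6a2* (ENSMUSG00000030785, chr7:128205435-128206387), a cytochrome c oxidase subunit known from heart and skeletal muscle, 209 and 56.7 times. The other cells still held the *Siglech* cells that the gate left out, 15 in the antibiotic and 107 in the vehicle library. Ordered by the lower of the libraries' ratios, *D13Ertd608e* came first, at 203 and 65.3 times. The other genes of the 20 were a second kallikrein gene *Klk1b27*, the calcium pump gene *Atp2a1*, *Paqr5*, the activating receptor gene *Cd300c*, *Smim5*, *Pir*, the Ly49 family gene *Klra17*, *Ccnd1* (cyclin D1), *Dntt*, the terminal transferase of lymphoid progenitors, *Sh3bgr*, the lectin gene *Clec10a*, *Ctsl*, *Lefty1*, *Tbc1d8* and the nucleotide-sugar receptor gene *P2ry14*.

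The 4 given markers differed in how they compared between the libraries. *Klk1* was at 1126 CPM in antibiotic and 1165 CPM in vehicle pDCs (ratio 0.967, 0.791 to 1.18), and in single cells it ranged between 0 and 26 UMIs with a median of 4, against 0 to 24 with a median of 5. *Cd209d* was at 912 CPM in antibiotic and 643 CPM in vehicle pDCs (ratio 1.42, 1.12 to 1.78), with medians of 5 and 2 UMIs per cell. With the relaxed gate its ratio was 1.21 with an interval, 0.989 to 1.48, that includes 1. *Cox6a2* went the other way. It ranged between 0 and 13 UMIs with a median of 7 in antibiotic cells, against 0 to 31 with a median of 13 in vehicle cells, and was detected in 15 of 19 and 77 of 78 members. Its level was 1028 CPM in antibiotic and 2184 CPM in vehicle pDCs (ratio 0.471, 0.385 to 0.571), and with the relaxed gate the ratio was 0.514. The single cells of both libraries overlapped in every one of these genes.

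Of the 18 pDC identity genes, all had at least 20 UMIs, and 5 were higher and 13 lower in antibiotic pDCs, against 49.9% higher and 50.1% lower among all 3645 genes with at least 20 UMIs. The median log2 ratio was -0.17, against 0.00 over those genes. Without 2 cells that stand apart, described below, 6 were higher and 12 lower. The median was then -0.05, against 0.01 over all 3542 genes with at least 20 UMIs. The list ratio was 0.854 over all members and 0.914 without those cells. The genes *Cox6a2* and *Ly6d*, 2 of the 18, were at least 1.5-fold lower, a share like the 11% of all 824 genes with at least 100 UMIs. *Bst2*, the tetherin gene that encodes the pDC antigen PDCA-1, had 4381 CPM in antibiotic and 4772 CPM in vehicle pDCs and was in every member. *Ly6d*, a gene of early B-lineage and lymphoid-derived pDC progenitors, had a median of 10 UMIs per antibiotic cell (0 to 54) and 16.5 per vehicle cell (0 to 104), which summed to 2351 and 3643 CPM (ratio 0.645, 0.565 to 0.735). *Plac8* was at 3889 and 4944 CPM (ratio 0.787). *Ly6c2*, by contrast, was at 2387 CPM in antibiotic and 1873 CPM in vehicle pDCs (ratio 1.27, 1.11 to 1.46), but at a ratio of 1.06 with the relaxed gate.

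**Figure D2:**
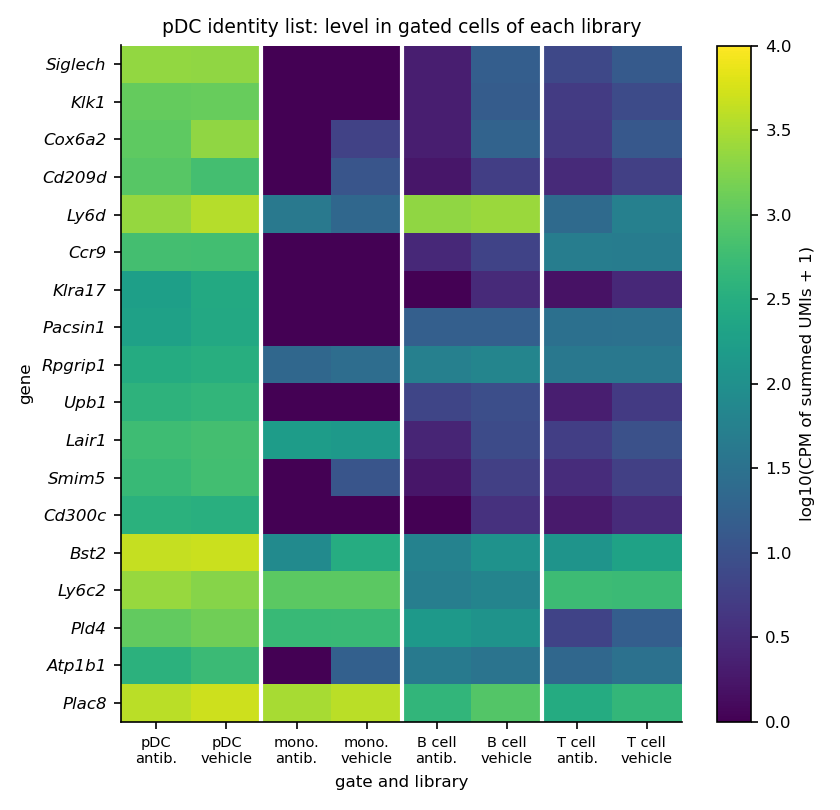
Level of the 18 pDC identity genes as log10 of CPM plus 1 (color) in gated pDCs, monocytes, B cells and T cells of the antibiotic (left of each pair) and the vehicle library. The pDC columns are the brightest for most genes, with *Siglech* at 2217 CPM in antibiotic and 2171 CPM in vehicle pDCs, while *Ly6d*, *Bst2* and *Plac8* are also seen in other gates.

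In each library 1 member stood apart. The antibiotic member with 2 *Siglech* UMIs had 10768 UMIs in all, UMIs of none of the 8 other pDC markers and none of *Tcf4*, with 412 UMIs of *Cd74*, 232 of *H2-Ab1*, 182 of *H2-Aa*, 86 of *Crip1*, 25 of *S100a4* and 24 of the cDC marker list, 8 of them *Cd209a*. It held 987 of the 2542 UMIs (38.8%) of the MHC class II list in antibiotic pDCs. The vehicle member with the most UMIs, 12921, had 7 *Siglech* UMIs and 7 of the 8 markers, and 4690 UMIs of the neutrophil list (*S100a8* alone had 2089), which was 99.6% of all such UMIs in vehicle pDCs. Beyond it, vehicle members had at most 11 neutrophil UMIs, and the 19 antibiotic members had 0. Values without these 2 cells (18 antibiotic and 77 vehicle cells) are an alternative chosen after the data were seen. They are given beside some results only, so a value that lacks them may also depend on these cells.

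**Figure D3:**
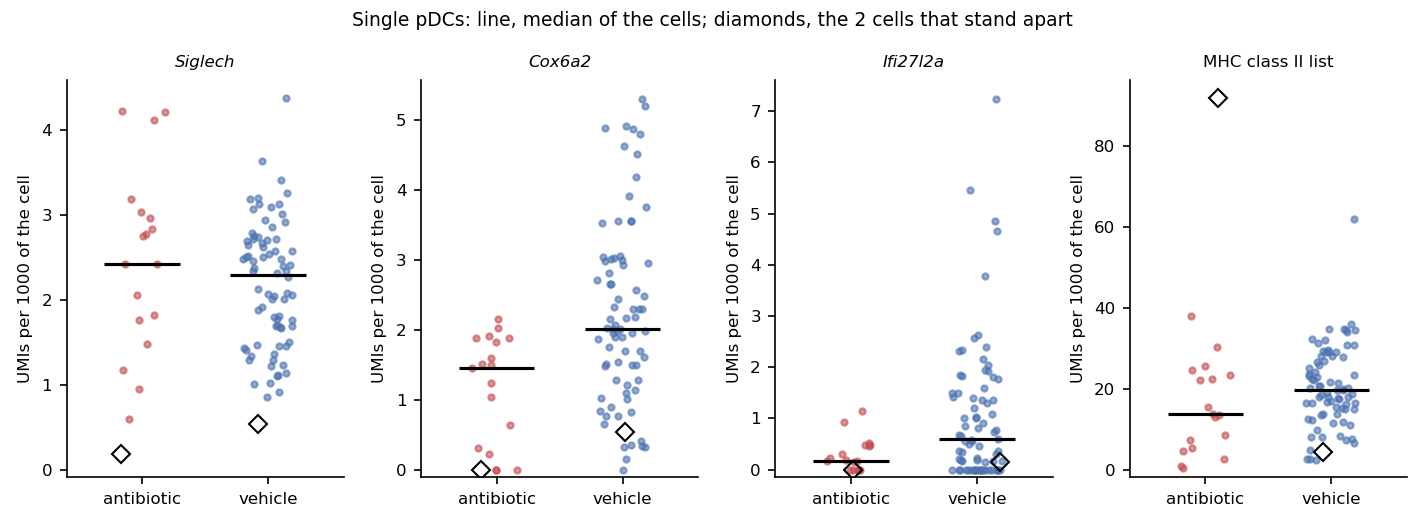
UMIs per 1000 UMIs of the cell for *Siglech*, *Cox6a2*, *Ifi27l2a* and the summed MHC class II list in each of the 19 antibiotic and 78 vehicle pDCs (points, with the median as a line and the 2 cells that stand apart as diamonds). The clouds overlap in all 4 panels, the antibiotic medians of *Cox6a2* and *Ifi27l2a* lie below the vehicle medians, and the antibiotic diamond is the highest cell of the MHC class II panel.

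Genes at least 1.5-fold apart were more often lower than higher in antibiotic pDCs. Among 824 genes with at least 100 UMIs, 28 (3.4%) were at least 1.5-fold higher and 91 (11%) at least 1.5-fold lower, with a median log2 ratio of -0.04. Without the cells that stand apart they were 20 of 797 (2.51%) and 85 of 797 (10.7%). Scaling without ribosomal and mitochondrial genes gave 54 higher and 64 lower genes instead, and TMM scaling, which moves every log2 ratio down by 0.12, gave 13 higher and 131 lower. In the lists below a gene counts as higher or lower by the sign of its ratio if it had at least 20 UMIs. Over all 3645 such genes, 49.9% were higher and 50.1% lower.

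The transcription factors of pDC identity were close to equal. The list as a whole was at 7742 CPM in antibiotic and 7843 CPM in vehicle pDCs (ratio 0.987, 0.916 to 1.06), with 8 of its 18 measured genes higher and 10 lower. *Irf8* was at 3513 and 3595 CPM (ratio 0.977, 0.874 to 1.09), with medians of 19 and 21 UMIs per cell. *Tcf4* was at 1118 and 1091 CPM (ratio 1.02, 0.836 to 1.25), with a median of 6 UMIs per cell in both. *Mef2c* (ratio 1.01) and *Bcl11a* (0.902) had intervals that include 1. *Runx2*, which supports the exit of pDCs from the bone marrow, was at 375 CPM in antibiotic and 286 CPM in vehicle pDCs (ratio 1.31, 0.906 to 1.87). *Spib*, an Ets-family factor, was at 250 and 420 CPM (ratio 0.595, 0.386 to 0.887), and the relaxed gate moved its ratio to 0.810 (0.586 to 1.10).

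The machinery of endosomal sensing was somewhat lower as a list, at 5838 CPM in antibiotic and 7250 CPM in vehicle pDCs (ratio 0.805, 0.739 to 0.876), with 5 of 15 measured genes higher and 10 lower. Without the 2 cells that stand apart the list ratio was 0.851 (0.780 to 0.926). The same list had a ratio of 1.07 in B cells, 0.891 in T cells and 0.969 (0.818 to 1.14) in monocytes. *Ctsl*, cathepsin L, had a median of 7 UMIs per antibiotic cell and 9 per vehicle cell (1225 and 1734 CPM, ratio 0.706, 0.585 to 0.847). *Pld4*, an endosomal exonuclease, was at 1091 and 1356 CPM (0.804, 0.657 to 0.978, and 0.882 with an interval up to 1.03 with the relaxed gate), and *Ctsb* and *Unc93b1*, the chaperone of endosomal TLRs, had ratios of 0.883 and 0.884 with intervals that include 1. *Irf7*, the factor that drives interferon genes downstream of these receptors, was at 161 CPM in antibiotic and 286 CPM in vehicle pDCs (ratio 0.563, 0.324 to 0.924) and was seen in 42.1% and 74.4% of members. With every cell thinned to 1500 UMIs, which leaves few counts, the ratios of *Pld4* and *Irf7* were 1.26 and 1.04. The receptors themselves were near the limit of detection: *Tlr7* had 7 and 33 UMIs (ratio 0.902, 0.337 to 2.07), and *Tlr9* 0 and 2 UMIs.

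Of the ITAM adaptors and their partners, 5 of 13 measured genes were higher and 8 lower, and the list had a ratio of 0.880 (0.827 to 0.935). *Tyrobp*, which encodes DAP12, had a median of 32 UMIs per antibiotic cell and 38.5 per vehicle cell (ratio 0.870, 0.797 to 0.949), and *Fcer1g*, which encodes FcRγ, had a ratio of 0.875 (0.732 to 1.04). *Lair1*, an inhibitory receptor for collagen, was at a ratio of 0.876 (0.657 to 1.15).

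No member of either library had a UMI of any of the 20 type I and type III interferon genes listed, which include *Ifnb1*, 13 *Ifna* genes and *Ifnl2*. A count of 0 allows up to 3 UMIs, which is 26.8 CPM over the antibiotic and 6.31 CPM over the vehicle members, and 0 of 19 and 0 of 78 cells allow shares of up to 15.8% and 3.85% of cells with a UMI, not of cells that transcribe the gene. Among the receptor and signaling genes, *Ifnar1* had 20 and 40 UMIs (179 and 84.1 CPM, ratio 2.13, 1.18 to 3.72), and *Ifnar2*, its partner chain, was at a ratio of 0.914 (0.590 to 1.37). *Irf9* was at 1.53, with an interval that includes 1.

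Genes of the interferon response were lower on balance. Of 26 with at least 20 UMIs, 7 were higher and 19 lower in antibiotic pDCs, the median log2 ratio was -0.53, and the summed level was 10621 CPM against 13357 CPM (ratio 0.795, 0.747 to 0.846). Among those with at least 100 UMIs, 5 of 8 were at least 1.5-fold lower and none higher. Over all 824 genes with at least 100 UMIs, 11% were at least 1.5-fold lower and 3.4% higher. *Ifi27l2a* had a median of 1 UMI per antibiotic cell (0 to 6) and 4 per vehicle cell (0 to 41). Its level was 241 CPM in antibiotic and 1059 CPM in vehicle pDCs (ratio 0.228, 0.149 to 0.336). The low end was shared, with 7 antibiotic and 21 vehicle cells at 0, and the cells above 6 UMIs were all in the vehicle library. *Ly6a*, which encodes Sca-1, was at 420 and 1003 CPM (ratio 0.419, 0.304 to 0.566). *Trim30a*, a regulator of innate signaling in mice, was at 143 and 256 CPM (ratio 0.558, 0.309 to 0.943). *Isg15*, the ubiquitin-like modifier, had 4 and 26 UMIs, which leaves its ratio open between 0.166 and 1.89. *Ly6e* (ratio 0.906) and *Bst2* (0.918), the most abundant members of the list, had intervals that include 1. With 2 of the 8 other markers in place of *Siglech* the list ratio was 1.06. The list had a ratio of 0.886 in B cells and 0.771 in T cells, but of 1.13 (1.05 to 1.22) in monocytes. B cells had ratios of 0.454 for *Ifi27l2a*, 0.543 for *Ly6a* and 0.691 for *Trim30a*.

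MHC class I, which interferon raises in many cells, was lower in most of its genes. The list was at 12731 CPM in antibiotic and 18536 CPM in vehicle pDCs (ratio 0.687, 0.649 to 0.726), with 3 of 21 measured genes higher and 18 lower. *B2m*, the invariant light chain, had a median of 21 UMIs per antibiotic cell (5 to 53) and 41 per vehicle cell (16 to 87). The middle 50% of the cells of each library did not overlap, at 18.5 to 26 UMIs in antibiotic and 31.25 to 47 UMIs in vehicle cells, while the full ranges did. Its level was 3916 and 6769 CPM (ratio 0.579, 0.522 to 0.639). *H2-K1* was at 1028 and 1675 CPM (0.614, 0.500 to 0.747), *H2-D1* at 2897 and 3738 CPM (0.775, 0.686 to 0.873), and the nonclassical genes *H2-Q7* and *H2-T23* at ratios of 0.459 and 0.423. *Psmb8*, an immunoproteasome subunit, differed less (ratio 0.940, 0.757 to 1.16). B cells were on the same side, with ratios of 0.825 for the list, 0.780 for *B2m* and 0.720 for *H2-K1*, and the list was at 0.768 in T cells and 0.745 in monocytes.

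The promoters of these genes were read from RefSeq in windows of 250 bases before to 50 bases after the gene start (GRCm38.p6) and searched on both strands, overlaps allowed, for GAAANNGAAA, a core of the interferon-stimulated response element that IRF factors bind. It was in 29 of the 52 interferon response genes with a window (55.8%), in 5 of 20 MHC class I genes (25%), in 1 of 10 MHC class II genes and in 2 of 15 pDC identity genes, against 3.99% of all 27025 genes with a window. Within the interferon response list it was in 7 of 14 genes measured lower in antibiotic pDCs and 2 of 7 measured higher. The 4 stretches below are shown because these genes belong to the interferon response and MHC class I values above and differ in where the motif lies and how often it recurs. Capitals mark the motif, and each stretch is 5′ to 3′ on the strand of its gene.
*B2m* (chr2:122147523-122147582, plus strand, motif beginning 139 bases before the start): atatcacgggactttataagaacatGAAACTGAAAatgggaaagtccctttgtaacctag
*Trim30a* (chr7:104465195-104465254, minus strand, 36 bases before, motif on the opposite strand): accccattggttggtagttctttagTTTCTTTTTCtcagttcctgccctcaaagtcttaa
*Isg15* (chr4:156200850-156200909, minus strand, 66 bases before, 3 overlapping motifs): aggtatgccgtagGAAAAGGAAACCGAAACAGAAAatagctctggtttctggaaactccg
*Bst2* (chr8:71537562-71537621, minus strand, 124 bases before, 2 overlapping motifs): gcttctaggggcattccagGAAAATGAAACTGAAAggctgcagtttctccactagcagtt
*B2m*, with 1 motif, had a ratio of 0.579, and *Bst2*, with 2, had a ratio of 0.918. A match says only that these letters are in the window.

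The MHC class II result turned on 1 cell. Over all members the list was at 22726 CPM in antibiotic and 20424 CPM in vehicle pDCs (ratio 1.11, 1.06 to 1.16), with 7 of 11 measured genes higher and 4 lower. Without the 2 cells that stand apart it was at a ratio of 0.737, and 2 of 10 genes were higher and 8 lower, against 51.3% and 48.7% of all genes without those cells. *Cd74*, the invariant chain, had a median of 45 UMIs per antibiotic cell and 66 per vehicle cell. It was at 10934 and 11227 CPM over all members (ratio 0.974, 0.914 to 1.04) and at a ratio of 0.698 without the 2 cells. *H2-Ab1* had medians of 10 and 13.5 UMIs, although its summed ratio was 1.49 (1.34 to 1.67), and without the 2 cells that ratio was 0.768. *H2-Aa* moved likewise, with ratios of 1.34 and 0.847, and *H2-Eb1* with 1.35 and 0.680. With the relaxed gate less cells that carried fewer than 4 of the 8 markers or at least 100 neutrophil UMIs, *H2-Ab1* was at 0.965 and *Cd74* at 0.820, so the size of the difference depended on the gate. Antibiotic members also included more cells with little class II: the lower quartile of *Cd74* was 17.5 UMIs, against 43.25 in vehicle members.

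Costimulatory and checkpoint ligands were sparse. Of 17 genes 4 had at least 20 UMIs, all at lower values in antibiotic pDCs, and the list had a ratio of 0.719 (0.551 to 0.926). With the relaxed gate it was at 0.855 (0.702 to 1.03). The ratio of the list was 1.10 in B cells, 0.623 in T cells and 1.25 (0.843 to 1.81) in monocytes. *Lag3*, a checkpoint receptor that pDCs are known to express, was at 170 CPM in antibiotic and 303 CPM in vehicle pDCs (ratio 0.561, 0.328 to 0.909) and was seen in 47.4% and 71.8% of members. *Cd48* and *Cd200* had ratios of 0.825 and 0.791 with intervals that include 1. Of 23 cytokine and chemokine genes, 3 had at least 20 UMIs. *Tgfb1* was at 402 and 431 CPM (ratio 0.934, 0.661 to 1.29), and *Ccl4* had 2 and 22 UMIs (ratio 0.387, 0.0441 to 1.57).

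Receptors that place pDCs in tissues were at like levels. The trafficking list had a ratio of 1.05 (0.941 to 1.17), with 5 of 12 measured genes higher and 7 lower. *Ccr9*, the chemokine receptor of gut-homing and steady-state pDCs, was at 635 CPM in antibiotic and 612 CPM in vehicle pDCs (1.04, 0.789 to 1.35) and *Selplg*, an adhesion glycoprotein of leukocytes, at a ratio of 0.984. *Itgb7* was at 1.13 (0.750 to 1.66), and at 0.894 (0.558 to 1.38) without the 2 cells that stand apart. Among growth factor receptors, *Flt3*, the receptor on which pDC development depends, had 22 and 37 UMIs (ratio 2.53, 1.42 to 4.40). Without the 2 cells its ratio was 1.73 (0.865 to 3.28). *Il7r*, the interleukin-7 receptor of lymphoid progenitors (ratio 0.456, 0.201 to 0.907), and *Cd4*, which part of the mouse pDCs carry (0.350, 0.137 to 0.753), were at lower values. The relaxed gate moved the ratio of *Il7r* to 0.812 (0.494 to 1.27).

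The secretory apparatus for which pDCs are known was at close levels in the libraries. The endoplasmic reticulum list had 16 genes higher, 17 lower and a ratio of 0.939 (0.878 to 1.00), with *Sec61g* at 1153 CPM in antibiotic and 1148 CPM in vehicle pDCs. *Ssr4*, a subunit of the translocon-associated complex, was at a higher value (671 and 446 CPM, ratio 1.5, 1.14 to 1.97). Oxidative phosphorylation had a ratio of 0.910 (0.873 to 0.948), the mitochondrially encoded genes 1.04 (1.00 to 1.08, and 0.959 with TMM scaling) and glycolysis 1.05 (0.908 to 1.21). Of the oxidative phosphorylation genes, 33 were higher and 41 lower. *Cox6a2* is 1 of them and held 115 of the list's 2746 antibiotic and 1039 of its 12836 vehicle UMIs. The low level of *Cox6a2* was not shared by *Cox4i1* (1118 and 1165 CPM, ratio 0.960, 0.784 to 1.17), another subunit of the same enzyme.

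Stress-related genes lay on different sides. Immediate early and heat shock genes were at 4282 CPM in antibiotic and 6283 CPM in vehicle pDCs (ratio 0.682, 0.618 to 0.751), with 1 of 16 measured genes higher and 15 lower. *Hsp90ab1*, a constitutive chaperone, had a median of 3 UMIs per antibiotic cell (1 to 10) and 7 per vehicle cell (1 to 18), or 644 and 1289 CPM (ratio 0.500, 0.386 to 0.638). *Hspa8* was at 0.814 (0.663 to 0.991, and 0.953 with the relaxed gate), *Jun* at 0.367 (0.201 to 0.622), and *Btg2* (0.958) and *Klf2* (0.987) had intervals that include 1. In B cells the list was at 0.922 and *Hsp90ab1* at 0.668, and the list was at 0.702 in T cells and 0.841 in monocytes. Glucocorticoid-response genes were higher, with all 4 measured genes above their vehicle value if 0.5 is added to each count and a list ratio of 1.88 (1.40 to 2.49). *Fkbp5*, a cochaperone of the glucocorticoid receptor, was seen in 12 of 19 antibiotic and 6 of 78 vehicle members. Its level was 161 and 12.6 CPM (ratio 12.8, 4.85 to 39.3). *Tsc22d3*, which encodes GILZ, was at 241 and 118 CPM (ratio 2.05, 1.25 to 3.30, and 1.44 with an interval down to 0.952 with the relaxed gate), and *Txnip* was at 0.990 (0.548 to 1.70). This direction too was found in B cells, where the list had a ratio of 2.05 and *Fkbp5* one of 7.16, and the list was at 1.31 in T cells and 1.70 in monocytes.

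Of the remaining lists, cytosolic sensing (0.781), NF-kB (0.940), survival and death (1.00) and DC maturation (0.684) had intervals that include 1. With the relaxed gate DC maturation was at 0.536 and its interval, 0.376 to 0.745, left out 1. Cell cycle genes had a ratio of 1.32 (1.08 to 1.62), which the relaxed gate turned to 0.911, with 2 of its genes at 100 or more UMIs.

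**Figure D4:**
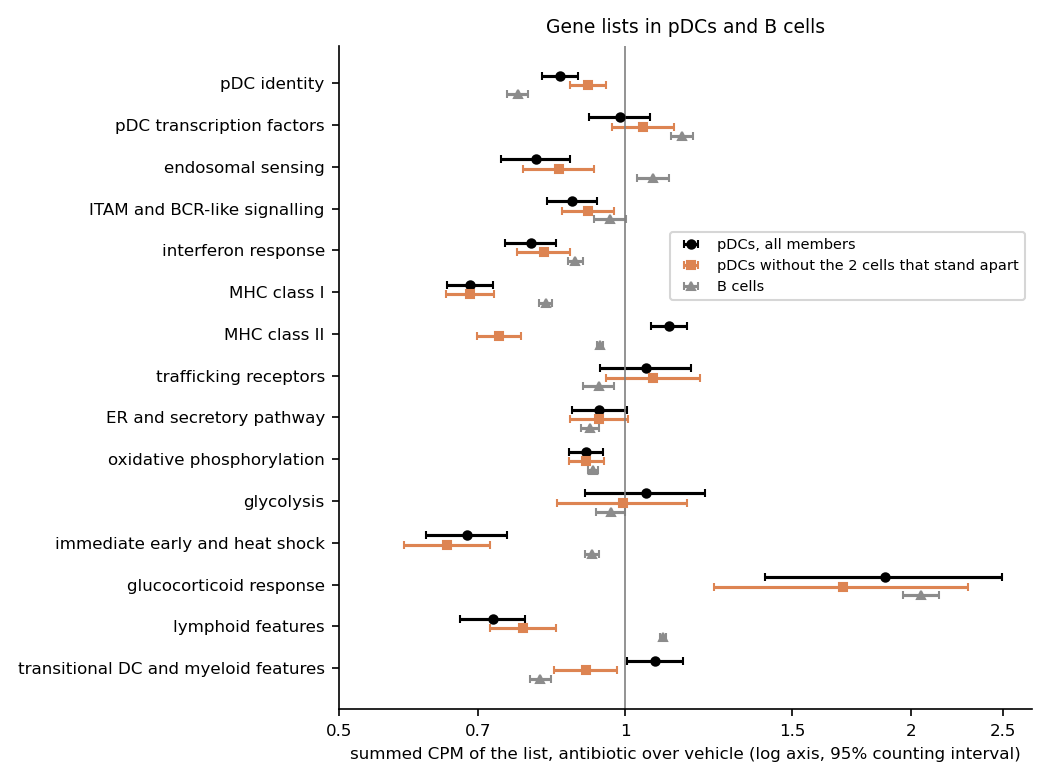
Summed CPM of 15 gene lists, antibiotic over vehicle, on a log axis with 95% counting intervals, for all pDCs (circles), pDCs without the 2 cells that stand apart (squares) and B cells (triangles). MHC class I (0.687) and the immediate early and heat shock list (0.682) lie left of 1 and the glucocorticoid response (1.88) right of it, while MHC class II crosses 1 when the 2 cells are left out (1.11 and 0.737).

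Ranked by how far the interval stayed from 1, the leading genes added some that no list held. On the higher side, *Rbm3* and *Cirbp*, both RNA-binding proteins induced by cold, were seen in nearly every antibiotic cell. *Rbm3* had a median of 8 UMIs per antibiotic cell (2 to 12) and 3 per vehicle cell (0 to 13), or 1305 and 477 CPM (ratio 2.74, 2.21 to 3.38). *Cirbp* was seen in 18 of 19 antibiotic and 42 of 78 vehicle members, at 581 and 141 CPM (ratio 4.13, 2.89 to 5.89). Both were also higher in B cells (1.95 and 2.55) and T cells (1.86 and 2.80). *Id3*, an inhibitor of E proteins such as E2-2, was seen in 11 of 19 antibiotic and 12 of 78 vehicle members and reached 20 and 8 UMIs in 1 cell. Its level was 375 CPM in antibiotic and 52.6 CPM in vehicle pDCs (ratio 7.14, 4.25 to 12.2), and the ratio was 2.88 with the relaxed gate. It was 2.72 (1.48 to 4.90) in monocytes, 1.33 in B cells and 0.516 in T cells, and 44.4% of antibiotic and 15.4% of vehicle monocytes had an *Id3* UMI. *Rtn4* (ratio 2.62, in 16 of 19 and 35 of 78 members) and *Unc50* (3.19, in 13 of 19 and 17 of 78) were spread over many cells. *Lgals3* (4.96, 3.10 to 7.97), galectin-3, came from 5 of 19 antibiotic and 11 of 78 vehicle cells. Its ratio turned to 0.106 when cells with markers of other cell types were left out, which leaves 8 antibiotic and 47 vehicle cells. Those markers include the cDC genes *Cd209a*, *Clec9a* and *Xcr1*, and *Cd209a* was seen in 57.9% of antibiotic and 43.6% of vehicle members. This alternative thus also drops members by a gene that many pDCs here carried.

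Some of the higher genes rested on the antibiotic cell that stands apart. *S100a4* had 29 UMIs in antibiotic and 3 in vehicle pDCs, 25 of the 29 in that cell. Leaving out the 2 cells took the ratio of *Crip1* to 1.33, against 2.05 over all members, and that of *Ms4a6c* to 2.29, against 5.32. *Ifitm3*, an interferon-induced restriction factor, was at 3.01 over all members and at 0.382 without them. *S100a6* was at 1.73 and 1.26. The list of transitional DC and myeloid features followed, with a ratio of 1.08 and 13 of 16 genes higher over all members. Without the 2 cells the ratio was 0.909, and with TMM scaling over all members 0.991.

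On the lower side, some leading genes were marks of 1 cell. *Lcn2*, *Wfdc21* and *Ifitm6*, all of neutrophils, had 0 UMIs in antibiotic pDCs, and nearly all of their vehicle UMIs came from the neutrophil-marked cell named above. The same held for *S100a8*, *S100a9*, *Ngp* and *Camp*. These 4 genes, and *Mzb1* below, were not part of the ranking, which left out the marker lists of other cell types. *Ly6k* had 2 antibiotic and 80 vehicle UMIs, in 1 of 19 and 14 of 78 members and up to 17 in 1 cell. *Cd8b1*, the CD8 beta chain, had 7 and 124 UMIs, in 5 of 19 and 27 of 78 members and up to 25 in 1 cell. *Il21r* was more widespread in the vehicle library. It was seen in 5 of 19 antibiotic and 60 of 78 vehicle members (53.6 and 244 CPM, ratio 0.220, 0.0791 to 0.493), with B cells at 0.869 and T cells at 0.747. *Mzb1*, a chaperone of antibody-secreting cells that pDCs also express, had 2 UMIs in antibiotic and 114 UMIs in vehicle pDCs, in 2 of 19 and 44 of 78 members (ratio 0.0746, 0.00893 to 0.276). B cells had a *Mzb1* ratio of 0.953 and T cells one of 0.436, and the relaxed gate moved the pDC ratio to 0.262. *Ccnd1*, one of the 20 genes that set pDCs apart, had a median of 1 UMI per antibiotic cell and 4 per vehicle cell (ratio 0.437, 0.296 to 0.627). *Malat1*, a nuclear noncoding RNA, was the most abundant of these, at a median of 100 UMIs per antibiotic cell (36 to 203) and 200 per vehicle cell (99 to 296). Its ratio was 0.588 (0.562 to 0.615) in pDCs, 0.723 in B cells and 0.688 in T cells.

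**Figure D5:**
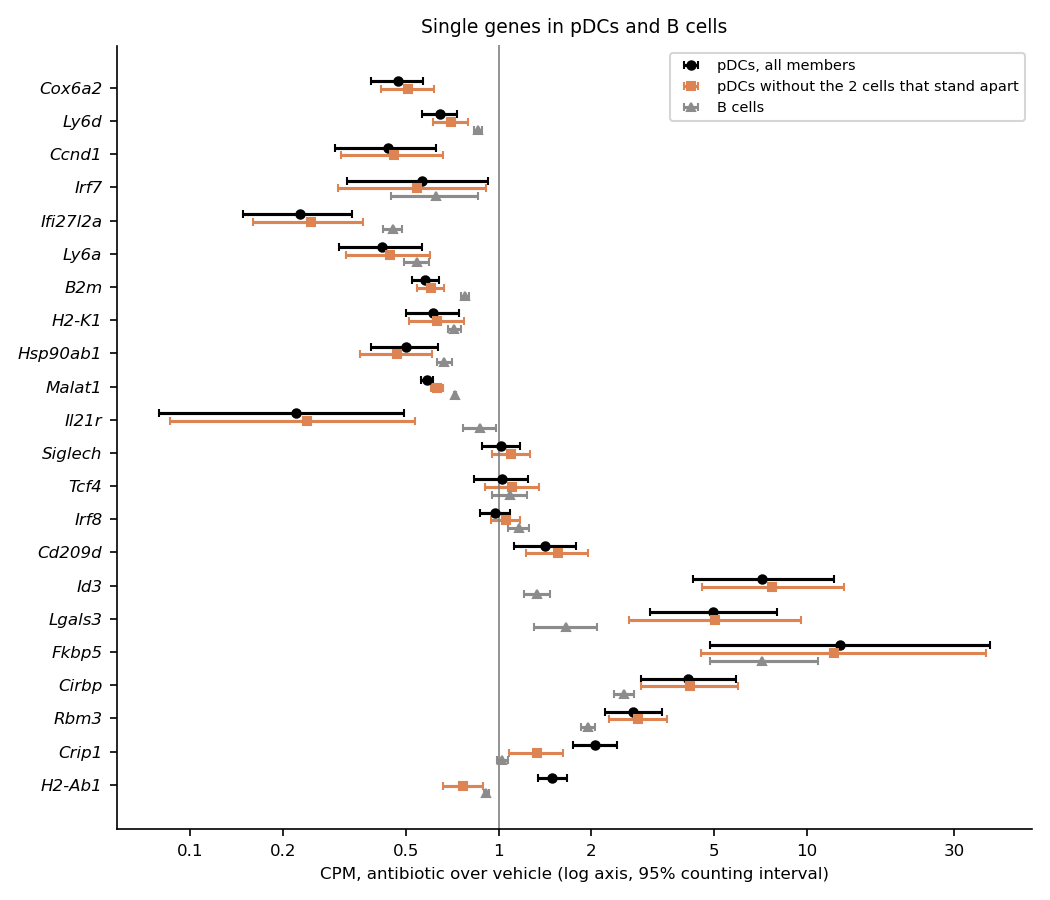
CPM of 22 genes, antibiotic over vehicle, on a log axis with 95% counting intervals, for all pDCs (circles), pDCs without the 2 cells that stand apart (squares) and B cells (triangles, not drawn for *Siglech*, *Cox6a2*, *Cd209d* and *Ccnd1*). *Ifi27l2a* (0.228) and *Il21r* (0.220) lie farthest to the left and *Fkbp5* (12.8) and *Id3* (7.14) farthest to the right, and *H2-Ab1* crosses 1 when the 2 cells are left out.

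Levels also varied among the pDCs of a library. Thinned to 1500 UMIs each, members of the vehicle library had a variance over mean of 5.21 for *Cd74*, 3.96 for *Ly6d* and 2.91 for *Klk1*, where 1 is the value of counting error alone, and 1.08 for *Siglech*. Antibiotic members had 16.2 for *Cd74*, which fell to 7.35 without the cell that stands apart, 4.32 for *Ly6d* and 2.21 for *Klk1*. Among the 10 most variable genes of vehicle members, *Actb*, the cytoskeletal beta-actin, had 12.9 both with and without the neutrophil-marked cell, and *Igkc* had 7.11 and 7.09. *S100a8* had 228, and without that cell no UMI of it was left in thinned cells. *Lyz2* had 20.1, and 1 without that cell. Lymphoid features as a list were at 6589 CPM in antibiotic and 9085 CPM in vehicle pDCs (ratio 0.725, 0.670 to 0.784), with *Ly6d* among its members. The list had a ratio of 1.10 in B cells, 0.778 in T cells and 0.468 in monocytes. *Iglc3* (0.775, 0.646 to 0.924, and 0.922 with the relaxed gate), *Ighm* (0.944, 0.768 to 1.15) and *Cd7* (1.09, 0.885 to 1.34), a surface glycoprotein of lymphoid cells, were nearer 1. *Dntt* was seen in 26.3% of antibiotic and 55.1% of vehicle members.

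cDC-type lectins were found within the gate. *Cd209a* (DC-SIGN family) was seen in 57.9% of antibiotic and 43.6% of vehicle pDCs, *Clec10a* in 57.9% and 82.1%, and *Clec9a* in 52.6% and 20.5%. Of the same cDC marker list, *Xcr1*, *Zbtb46*, *Itgae* and *Batf3* had no UMI in members of either library. B cells, which should lack them, had *Cd209a* in 0.370% of antibiotic and 0.559% of vehicle cells, at median depths of 2129.5 and 2493 UMIs. *Clec9a* had 11 and 21 UMIs in all (ratio 2.23, 0.970 to 4.83) and at most 4 in a cell.

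Markers of other cell types differed in how many members held them. Neutrophil genes were at 0 in all 19 antibiotic and 69 of 78 vehicle members, monocyte genes at 0 in 16 and 66, Kupffer cell genes at 0 in 17 and 75, and hepatocyte genes at 0 in 10 and 50. Their summed levels were 161 and 534 CPM for monocytes, 26.8 and 6.31 CPM for Kupffer cells and 259 and 92.5 CPM for hepatocytes. The monocyte direction turned without the 2 cells that stand apart, which held 12 of 18 antibiotic and 241 of 254 vehicle UMIs, at 59.4 CPM in antibiotic and 28.1 CPM in vehicle pDCs. Lymphocyte markers were more widespread. At least 1 UMI of the B cell list was in 17 of 19 antibiotic and 62 of 78 vehicle members (456 and 315 CPM), of the T cell list in 11 and 49 (143 and 174 CPM), of the natural killer cell list in 4 and 43 (116 and 111 CPM) and of the plasma cell list in 4 and 47 (35.8 and 275 CPM). Within the plasma cell list, *Mzb1*, which pDCs also express, was in 2 antibiotic and 44 vehicle members. *Sdc1* was in 1 and 9, *Igha* in 1 and 3 and *Ighg1* in 0 and 3. Of the natural killer cell UMIs, 8 of 13 antibiotic ones were in the cell that stands apart, and without the 2 cells the levels were 49.5 and 110.2 CPM. Endothelial markers were in 4 antibiotic and 25 vehicle members (35.8 and 71.5 CPM) and erythroid ones in 0 and 14. *Trf*, transferrin, made up all 29 hepatocyte UMIs of antibiotic pDCs, 16 of them in the cell that stands apart, and had 37 UMIs in vehicle pDCs, while *Alb* had 0 and 1 UMI. The defining genes *F13a1*, *Fn1* and *Ace* of monocytes and *Clec4f*, *Vsig4*, *Cd5l*, *Timd4* and *Marco* of Kupffer cells had no UMI in members of either library. Among B cell markers, *Fcrla* had 36 and 89 UMIs and *Cd79b* 12 and 46. The part of these UMIs in the ratios above was not tested. *Igkc*, the kappa light chain of B cells, was at 215 CPM in antibiotic and 874 CPM in vehicle pDCs (ratio 0.245, 0.155 to 0.370), and the highest vehicle cell had 65 of its UMIs.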

How the data were processed

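The authors deposited UMI counts per gene and barcode, whole numbers with no normalization, which per the submitters' processing notes were made with bcl2fastq and Cell Ranger on mm10 (their versions are not in the sources used here). Gene positions are from GENCODE vM21. Counts were summed over the members of a library and scaled to CPM of their own UMIs (library totals 29811401 UMIs antibiotic, 41474311 vehicle). Ratios carry exact conditional intervals of 2 Poisson counts and shares Clopper-Pearson intervals, both at 95%. Counts of genes and medians added 0.5 to each count. B cells had 2 or more *Cd79a* and no *Cd3* UMIs, and T cells the reverse. The calculation was tested on simulated Poisson counts, which hold no spread among cells beyond counting error, and doublets were scored but kept. Named genes are the markers, the 4 most abundant genes of each list, the 10 leading higher and lower genes, the 20 with the highest ratio over other cells and the 10 most variable in vehicle pDCs. Others (*Ly6c2*, *Runx2*, *Spib*, *Irf7*, *Tlr7*, *Tlr9*, *Trim30a*, *Isg15*, *H2-Q7*, *H2-T23*, *Jun*, *Xcr1*, *Zbtb46*, *Itgae*, *Batf3*) were chosen after their values were seen, and the cells and gene lists with earlier results of these data known. Alternatives were other gates, depths, scalings, TMM (edgeR) and minimum counts. Python 3.11.15, scipy 1.17.1, pandas 2.3.3, scanpy 1.11.5, R 4.3.3 and edgeR 4.0.16 were used. Results for some genes are not reported here.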

Additional observations from a re-analysis of the deposited data

Results flagged for a closer look

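A pair of genes and 3 lists had intervals on opposite sides of 1 in pDCs and in B cells of the same libraries, with and without the 2 pDCs that stand apart. The differences between the cell types were not tested, since each condition has 1 library. *Fcrla*, an Fc receptor-like gene of B cells, was at 322 CPM in antibiotic and 187 CPM in vehicle pDCs (ratio 1.72, 1.13 to 2.56), and at 301 and 354 CPM in B cells (0.852, 0.785 to 0.925). *Igkc* was at 215 CPM in antibiotic and 874 CPM in vehicle pDCs (0.245, 0.155 to 0.370), and at 19445 and 17202 CPM in B cells (1.13, 1.12 to 1.14). The endosomal sensing list had a ratio of 0.805 in pDCs and 1.07 in B cells, costimulation and checkpoint ligands 0.719 and 1.10, and lymphoid features 0.725 and 1.10. These are ratios of sums, in which abundant genes weigh most, and single genes did not all follow them. In B cells *Ctsb* was at 0.733, *Ly6d* at 0.859 and *Cd48* at 0.810, below 1 as in pDCs. *Unc93b1* (1.15), *Pld4* (1.25) and *Cd200* (2.51) were above 1 in B cells. T cells were on the side of the pDCs in these lists, at 0.891, 0.623 and 0.778. All other cells together were at 0.759, 0.656 and 0.723. B cells were 15.3% of antibiotic and 25.8% of vehicle cells, and T cells 68.6% and 45.4%. Level and cell mix cannot be told apart in that sum. With the relaxed gate *Fcrla* was at 1.28 (0.891 to 1.81) in pDCs, and costimulation and checkpoint ligands at 0.855 (0.702 to 1.03).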

How the results depend on the processing

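Each condition has 1 library, so no replicate could be left out. No paired analysis was possible because each condition has 1 library and the labels give no replicate numbers. Ratios in this paragraph have 0.5 added to each count, and the alternatives that leave out the 2 cells that stand apart, alone or with the trace cells added, were chosen after the data were seen. The pDC share ratio of 0.311 was 0.553 over cells without *Cd3*, 0.690 over cells without *Cd3* and *Cd79a*, and turned to 1.03 over gated pDCs, cDCs and monocytes. The 28 genes at least 1.5-fold higher became 62 with the relaxed gate, 56 with that gate less cells that have fewer than 4 of 8 markers or at least 100 neutrophil UMIs, 13 with thinned cells, 13 with TMM scaling, 54 with scaling without ribosomal and mitochondrial genes, 115 with a minimum of 50 UMIs and 8 with one of 200. The 91 lower genes became 151, 141 and 21 under the first 3 of these, 231 and 27 with minimums of 50 and 200, and 59 with 3 added to each count. Relaxed gates and lower minimums add cells or genes by construction, and thinning and higher minimums remove counts or genes.

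Of 86 genes and 25 lists whose ratios are given, 52 and 14 had an interval that leaves out 1, and 40 and 9 of these kept their direction under every alternative. Some alternatives could not change a ratio. The minimums of 50 and 200 UMIs do not enter it, and a cell threshold of 1000 UMIs left the members at 19 and 78. Of the 34 genes and 11 lists whose interval includes 1, 26 and 10 had ratios on both sides of 1 over the alternatives, so no direction is read from them. The MHC class II list turned to 0.753 and 0.791 with *Siglech* minimums of 3 and 5, 0.770 without cells carrying other-cell markers, 0.720 with 2 of the 8 markers in place of *Siglech*, 0.737 without the 2 cells, 0.871 with the relaxed gate less cells of few markers, 0.942 as a mean over cells and 0.936 when thinned. *H2-Aa* turned to 0.867, 0.929, 0.797, 0.803 and 0.849 under the first 5 and 0.963 when thinned. *H2-Ab1* turned to 0.789, 0.841, 0.705, 0.717, 0.770 and 0.966 under the first 6. *H2-Eb1* turned to 0.695, 0.744, 0.664, 0.593, 0.684 and 0.961, and 0.914 when thinned. The transitional DC and myeloid list turned to 0.880, 0.801 and 0.567 under the first 3, 0.910 without the 2 cells, 0.887 with the relaxed gate less cells of few markers, 0.989 as a mean over cells, 0.993 when thinned and 0.991 with TMM scaling. *Ifitm3* turned to 0.288, 0.309 and 0.153 under the first 3, 0.549 without the 2 cells, 0.0976 with the relaxed gate less cells of few markers and 0.586 when thinned. Cells with other-cell markers left out, which leaves 8 antibiotic and 47 vehicle cells, took *Crip1* to 0.988, *S100a6* to 0.934, *Lgals3* to 0.106, *Ms4a6c* to 0.418 (0.764 with a *Siglech* minimum of 5) and *Iglc3* to 1.22. That alternative also drops members by *Cd209a*, which was seen in 57.9% of antibiotic and 43.6% of vehicle pDCs. The relaxed gate less cells of few markers took *Iglc3* to 1.03 and *S100a4* to 0.906. The interferon response list was 1.06 with 2 of 8 markers in place of *Siglech*, which adds 3 antibiotic and 17 vehicle cells without *Siglech*. The cell cycle list was 0.913 with the relaxed gate, the mitochondrially encoded list 0.959 with TMM scaling, and *Pld4* and *Irf7* 1.26 and 1.04 when thinned. The cause of the other reversals was not tested.

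With 19 antibiotic cells, a gene with few UMIs has a wide interval, and absence cannot be told from a low level.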
